A study of Mus musculus with 21 samples.

Results

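The genes described here encode the enzyme that makes itaconate (Acod1) and enzymes and regulators of polyamine metabolism (Smox, Odc1, Srm, Amd1, Azin1 and Oaz1) and of arginine metabolism (Arg1, Arg2 and Nos2). They were chosen by their symbols and make up 10 of the 54123 genes of the series. Their levels were followed in RNA-Seq libraries of polymorphonuclear neutrophils (PMNs), which the labels give as isolated from blood, and of renal tubular epithelial cells (TECs) from kidney. The donors were male wild-type C57BL/6 mice aged 8 to 12 weeks. All cells were taken 24 hours after either sham surgery or renal ischemia-reperfusion injury (IRI), in which both renal pedicles were clamped for 32 minutes. Before surgery the mice had received remote ischemic preconditioning (RIPC), 3 cycles of 5 minutes of hind limb ischemia by a cuff, or a control procedure in which the cuff left the limb perfused. The 21 libraries fell into 8 groups. In PMNs there were 2 libraries of sham surgery with control procedure, 3 of sham surgery with RIPC, 2 of IRI with control procedure and 3 of IRI with RIPC. In TECs the same groups held 3, 3, 2 and 3 libraries. The labels number the replicates but do not say whether each came from a separate animal, so the spread between libraries may be partly technical. The 10 genes were chosen with earlier results of the same libraries known, and the values behind the choice are not recorded, so the adjusted p below describe where these genes stand in the whole table and are not independent tests.

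Acod1 sits in mitochondria and decarboxylates cis-aconitate, an intermediate of the citric acid cycle, to itaconate; it is known as a gene that myeloid cells switch on during inflammation. Polyamines are made from ornithine by ornithine decarboxylase (Odc1), after which spermidine synthase (Srm) adds aminopropyl groups that S-adenosylmethionine decarboxylase (Amd1) provides. Spermine oxidase (Smox) turns spermine back to spermidine with release of hydrogen peroxide. Ornithine decarboxylase is bound and sent to degradation by antizyme (Oaz1), and antizyme inhibitor (Azin1) binds antizyme in its place. The arginases, cytosolic Arg1 and mitochondrial Arg2, cleave arginine to ornithine and urea, whereas inducible nitric oxide synthase (Nos2) uses the same arginine to make nitric oxide.

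Depth ranged from 20881334 to 30507235 summed reads in PMN libraries and from 21479605 to 51624602 in TEC libraries. Each library came as 2 files. In the median gene the squared deviation between their counts was 0.012 to 0.062 of the counting variance, against 0.455 expected of separate samplings. The files thus seem to hold largely the same reads, which the labels do not state. Some genes differed far more, and the mean of this ratio over genes reached 4.53. Amd1 had 0 and 324 reads in the 2 files of TEC IRI control replicate 2. A library with fewer than 3 reads per file for a gene was treated as not distinguishable from 0, which corresponds to 0.235 to 0.311 CPM (read counts scaled to library size) in PMNs and 0.149 to 0.277 CPM in TECs and covers counting error only. Levels are normalised read counts in CPM, scaled over all 21 libraries, unless stated otherwise. Pairs of PMN libraries of the same group correlated with r between 0.663 and 0.804 across genes, and pairs of TEC libraries between 0.739 and 0.883.

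The labelled cell types were checked against 10 neutrophil and 9 proximal tubule markers. The summed neutrophil markers were 6078 to 28020.3 CPM in PMNs after sham surgery and 12715 to 33559.7 CPM after IRI, against at most 109 CPM in TECs. Not every marker was present in every sham library of PMNs. Ltf and Camp were at or under the read floor given above in sham control replicate 2 and sham RIPC replicate 2. Camp and Ngp were at or under it in sham RIPC replicate 1. All 10 neutrophil markers were above it in the other PMN libraries, which include every IRI library. The PMN libraries also held tubular transcripts. Their summed proximal tubule markers were 1233 to 10888 CPM after sham surgery and 513 to 909.9 CPM after IRI, against 8274 to 16260.5 CPM in TECs after sham surgery and 2561 to 7593 CPM in TECs after IRI. Summed macrophage and monocyte markers were 3053 to 9456 CPM in PMNs after sham surgery and 774 to 1865 CPM after IRI. The sham and IRI libraries of PMNs did not overlap in the proximal tubule or in the macrophage sum. Single macrophage markers differed in this. C1qa did not overlap (930 to 2450 CPM after sham surgery, 70.6 to 389 CPM after IRI), but Csf1r did (103 to 720 CPM and 190 to 443 CPM). Summed distal tubule and collecting duct markers overlapped too (120 to 5215 CPM and 45.3 to 617 CPM). The part of these cells in the results below was not tested. In such bulk libraries fewer cells of a type and less RNA per cell cannot be told apart.

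**Figure D1:**
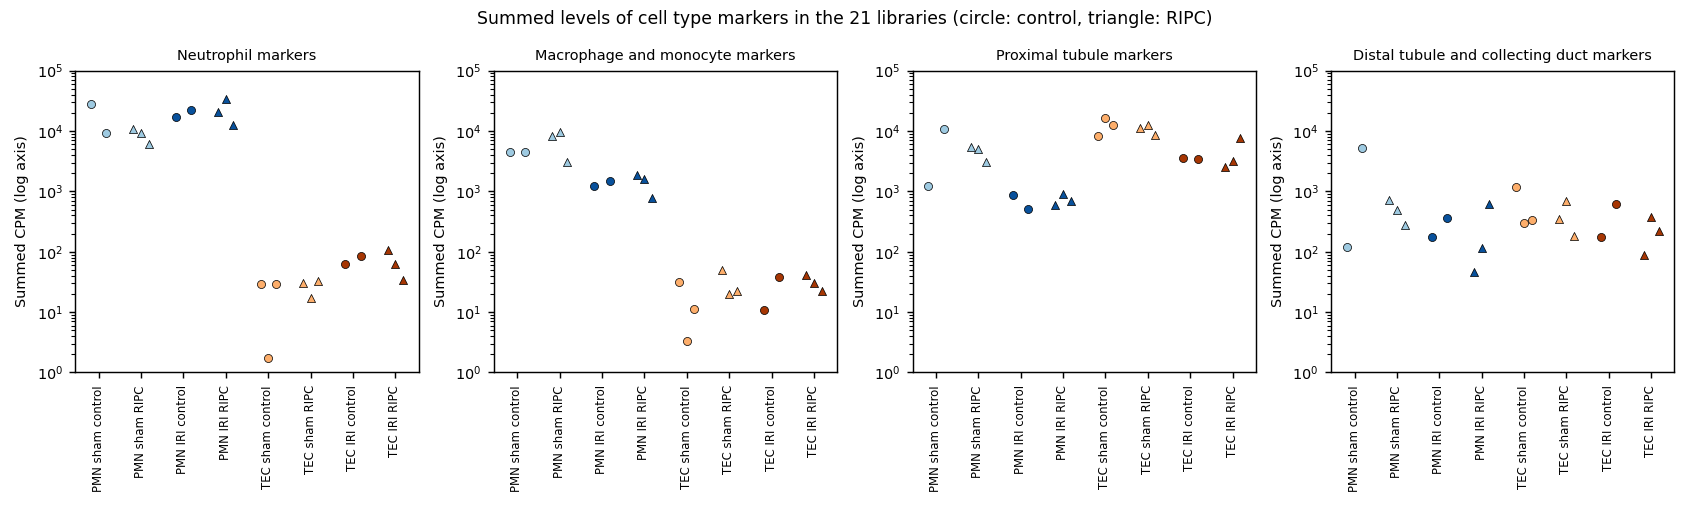
Summed CPM of cell type markers (log axis) in each library, by group. Circles are control and triangles RIPC libraries; neutrophil markers separate PMNs from TECs, and the proximal tubule and macrophage sums of PMNs are higher in all sham libraries than in any IRI library.

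In PMNs, the itaconate enzyme Acod1 and the spermine oxidase Smox rose after IRI, and these were the 2 of the 10 genes that passed the test. The share of all 25002 genes tested that passed was 0.416%, or 0.364% counting only genes that were higher after IRI. The inducible nitric oxide synthase Nos2 and the mitochondrial arginase Arg2 also had all IRI libraries above all sham libraries but did not pass. None of the 10 genes passed as lower. The comparison averaged control and RIPC libraries within sham surgery and within IRI, and called a gene at an adjusted p under 0.05 in edgeR's quasi-likelihood test over all genes tested.

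The Acod1 gene lies on the plus strand of chromosome 14 at chr14:103046977-103056573 (mm10/GRCm38, Gencode M21), and none of the 50-base stretches of its transcript occurs in another gene. Smox lies on the plus strand of chromosome 2 at chr2:131491496-131525922, also with no shared stretch. Since both genes rose in the same libraries, the sequence before their RefSeq start sites is shown, taken from RefSeq (build GRCm38.p6) and read 5′ to 3′ on the plus strand. The Acod1 stretch covers chr14:103046762-103047006, and its capitals mark a TATA box (TATAAA), which starts 28 bases before the RefSeq start. The Smox stretch covers chr2:131491654-131491793, and its capitals mark GC boxes (GGGCGG). Each stretch stops 30 bases into an exon that Gencode draws there. The annotations disagree on both starts. Gencode starts Acod1 upstream of RefSeq, so that the marked TATAAA lies inside the first Gencode exon, and it starts Smox upstream of the whole printed stretch, which thus lies inside the gene as Gencode draws it.
Acod1: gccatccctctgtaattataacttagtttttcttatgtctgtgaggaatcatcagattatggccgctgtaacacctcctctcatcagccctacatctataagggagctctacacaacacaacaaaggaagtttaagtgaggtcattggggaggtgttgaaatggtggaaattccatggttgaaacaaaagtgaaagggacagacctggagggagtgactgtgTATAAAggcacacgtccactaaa
Smox: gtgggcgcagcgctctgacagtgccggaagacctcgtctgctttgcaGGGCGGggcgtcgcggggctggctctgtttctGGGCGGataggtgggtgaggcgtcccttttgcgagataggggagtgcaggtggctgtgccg
The windows of 250 bases before the RefSeq start differed in base composition, with 44.4% G and C for Acod1 and 68% for Smox. TATAAA was present on either strand in 12.4% of the 32851 promoter windows of this length and in the Acod1 but not the Smox window. The Smox window held 6 GC boxes, counting both strands, and 32.7% of all windows held at least 1. Neither window matched the letters searched for AP-1 (TGANTCA, in 6.75% of windows), C/EBP (TTGCNNAA, 9.56%), STAT factors (TTCNNNGAA, 7.02%), an E-box (CACGTG, 6.02%), the cAMP response element (TGACGTCA, 1.55%), NF-kB (7.25%) or the interferon response element (2.98%). These are matches of letters within short windows and not binding sites. Of the other 8 genes, 3 had a window in the table used: Odc1 held 4 GC boxes, Amd1 held 1, and Oaz1 held 1 match to the NF-kB letters.

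Acod1 was measured at 132 and 316 CPM in the control libraries and at 84.5, 101 and 99.3 CPM in the RIPC libraries of PMNs after sham surgery. After IRI it was measured at 1186 and 1617 CPM in the control libraries and at 2552, 2783 and 2324 CPM in the RIPC libraries. The lowest IRI library thus lay above the highest sham library, and the RIPC libraries were the lowest after sham surgery and the highest after IRI. The means were 146 ± 96.2 CPM (SD, n = 5) and 2092 ± 669 CPM (SD, n = 5), a log2 fold change of 3.68 ± 0.29 (SE) with an edgeR adjusted p of 0.00438. By this p it ranked second among all genes tested.

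Smox was measured at 116 and 59.1 CPM in the control libraries and at 82.7, 44.6 and 65.4 CPM in the RIPC libraries of PMNs after sham surgery. After IRI the values were 479.6 and 456 CPM in the control libraries and 687, 790.0 and 855 CPM in the RIPC libraries. Again no IRI library fell to the level of a sham library. The means were 73.6 ± 27.6 CPM (SD, n = 5) after sham surgery and 653 ± 180.2 CPM (SD, n = 5) after IRI, with a log2 fold change of 2.99 ± 0.31 (SE) and an edgeR adjusted p of 0.00879.

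Both calls were kept with any single PMN library left out, with edgeR adjusted p of 0.000901 to 0.0312 for Acod1 and 0.0048 to 0.0498 for Smox. With the control groups alone, 2 libraries against 2, neither passed, at log2 fold changes of 2.64 (edgeR adjusted p = 0.378) for Acod1 and 2.41 (adjusted p = 0.586) for Smox, and neither passed in a fit of all 8 groups together (adjusted p = 0.13 for Acod1 and 0.241 for Smox). Summed neutrophil markers were 6078 to 28020.3 CPM in the sham libraries of PMNs and 12715 to 33559.7 CPM in the IRI libraries. The part of neutrophil content in the rise was not tested.

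**Figure D2:**
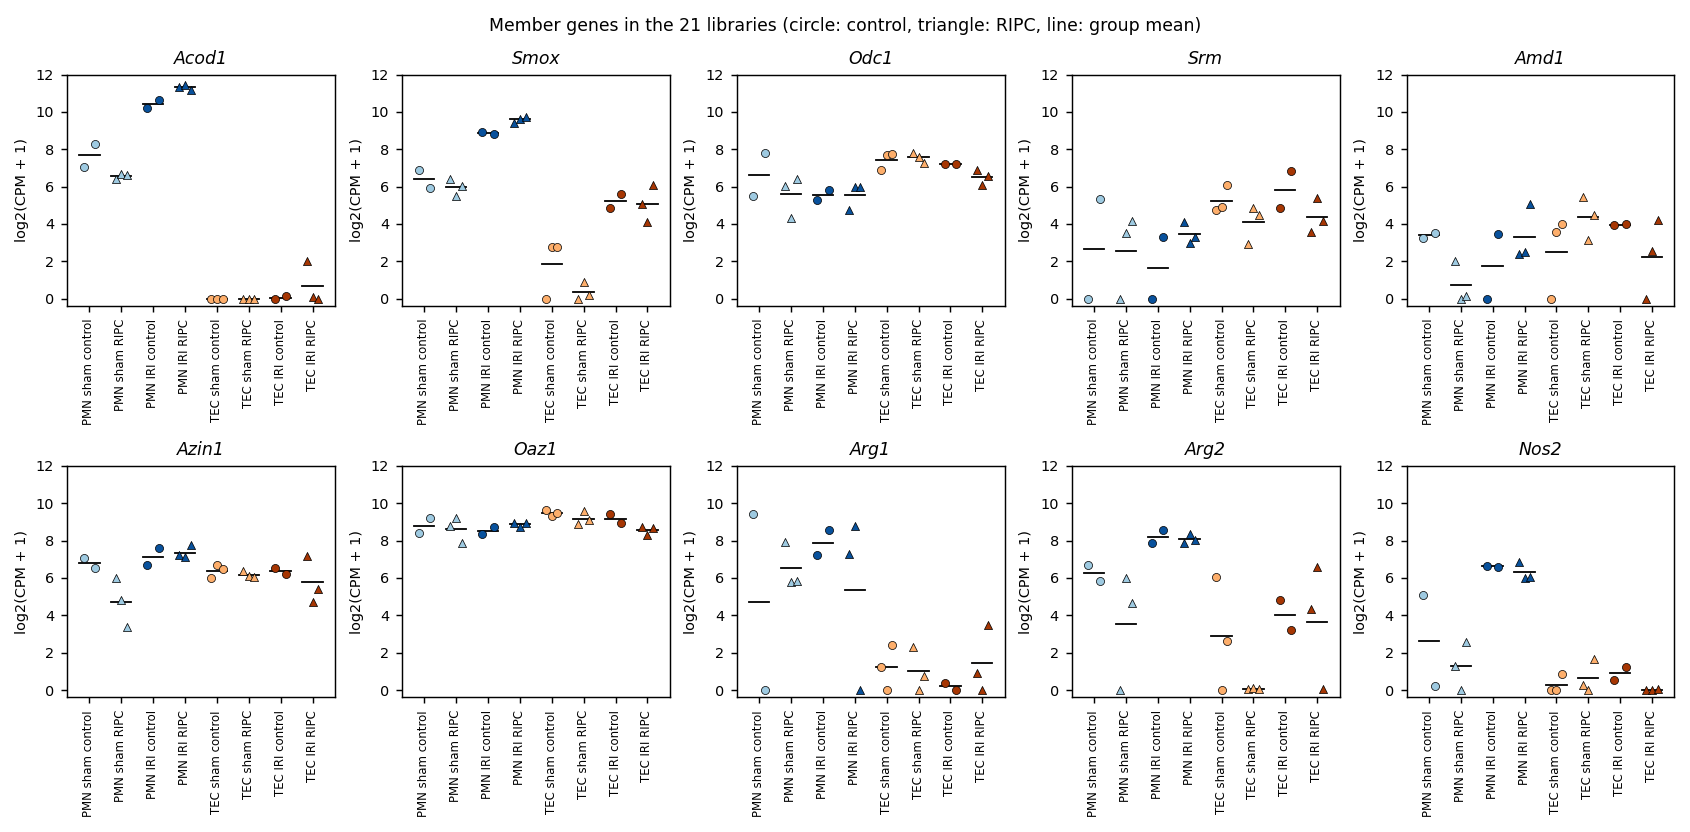
Levels of the 10 genes as log2(CPM + 1) in the 21 libraries, by group. Circles are control and triangles RIPC libraries, and lines are group means; in PMNs Acod1, Smox, Arg2 and Nos2 have all IRI libraries above all sham libraries.

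Of the arginine enzymes, Nos2 was at 4.93 CPM or less in 4 of the 5 sham libraries of PMNs. In PMNs after sham surgery it was measured at 32.4 and 0.144 CPM with control procedure and at 1.44, 0 and 4.93 CPM with RIPC, and after IRI at 99.98 and 94.3 CPM with control procedure and at 113, 63.2 and 64.7 CPM with RIPC. Sham control replicate 1 was the high sham library, and it remained below the lowest IRI library. The log2 fold change was 3.91 ± 1.53 (SE) with an edgeR adjusted p of 0.409. Arg2 was measured at 103 and 55.8 CPM and 0, 62.1 and 24.2 CPM in control and RIPC libraries of PMNs after sham surgery, and at 231 and 373 CPM and 235, 331 and 261 CPM after IRI. Its log2 fold change was 2.57 ± 1.24 (SE) with an edgeR adjusted p of 0.414. Thus 4 of the 10 genes had all IRI libraries of PMNs above all sham libraries, against 3.47% of all genes tested, and Nos2 and Arg2 were the ones of these 4 that did not pass. Both passed when genes with low counts were kept in the fit (adjusted p = 0.00716 for Nos2 and 0.00739 for Arg2), and Nos2 also passed in DESeq2's Wald test (adjusted p = 0.0279). Passing was more common there: the Wald test called 1955 of all genes, against 104 in the main test, and the fit without a filter also called more.

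Arg1 scattered widely inside the groups of PMNs. It was measured at 674 and 0 CPM in the sham control libraries, at 239, 54.7 and 55.2 CPM in the sham RIPC libraries, at 146 and 383 CPM in the IRI control libraries and at 152, 431 and 0 CPM in the IRI RIPC libraries. The sham and IRI libraries overlapped, with the highest value in a sham library, and both kinds of surgery held a library at 0. The log2 fold change was 0.18 ± 1.89 (SE, edgeR adjusted p = 1), and its sign turned without sham control replicate 2 (-0.27), IRI control replicate 2 (-0.22) or IRI RIPC replicate 2 (-0.46).

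The genes of polyamine synthesis did not pass in PMNs in either direction. Odc1, the entry enzyme, was measured at 44.6 and 219.6 CPM in sham control, 63.6, 19.1 and 84.8 CPM in sham RIPC, 38.3 and 56.2 CPM in IRI control and 26, 62.7 and 61.7 CPM in IRI RIPC libraries. Its highest value came from sham control replicate 2, and without that library the log2 fold change moved from -0.83 ± 0.62 (SE, edgeR adjusted p = 0.594) to 0.0047. That library also had the highest proximal tubule sum of the PMN libraries, 10888 CPM, and the part of tubular RNA in its Odc1 value was not tested. Srm ranged from 0 to 40.2 CPM after sham surgery and from 0 to 16 CPM after IRI (log2 fold change -1.01 ± 2.08, SE, edgeR adjusted p = 0.926), and without sham control replicate 2 its sign turned too (4.97). Amd1 ranged from 0 to 10.6 CPM and from 0 to 33.2 CPM, with a log2 fold change of 1.38 ± 1.84 (SE, edgeR adjusted p = 0.819) that turned to -3.49 without IRI control replicate 2. All these ranges overlapped between surgeries.

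The regulators of ornithine decarboxylase did not pass in PMNs either. Azin1, the antizyme inhibitor, ranged from 9.45 to 133 CPM in PMNs after sham surgery and from 102 to 214 CPM after IRI, with a log2 fold change of 1.34 ± 0.54 (SE, edgeR adjusted p = 0.413). Oaz1, the antizyme, ranged from 237 to 588 CPM and from 324 to 493 CPM, with a log2 fold change of -0.099 ± 0.31 (SE, edgeR adjusted p = 0.99). The Oaz1 sign turned without sham control replicate 2 (0.18), sham RIPC replicate 2 (0.10) or IRI control replicate 1 (0.03). Over the 10 genes the median log2 fold change after IRI in PMNs was 1.36, and over all genes tested it was -0.013.

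Some of these levels are uncertain because reads can fall on copies. Of the 50-base stretches of the Amd1 transcripts (chr10:40287458-40302186, minus strand) 78.1% also occur in other genes, most of them in Amd2. The shared part was 24.3% for Odc1 (chr12:17544794-17551505, plus strand), with the predicted genes Gm7993, Gm17709 and Gm9115 sharing the most, and 21% for Oaz1 (chr10:80826656-80829290, plus strand), mainly with the pseudogene Oaz1-ps. Arg2 (chr12:79130777-79156301, plus strand) shares 21.2% of its stretches with the antisense genes Vti1b and Gm48780, and Azin1 (chr15:38487427-38519266, minus strand) shares 4.83% with the antisense gene Gm49077. The labels do not state that strand was used in counting, so reads of these genes and their antisense partners cannot be told apart. Srm (chr4:148591503-148594993, plus strand) shares 2.01%, and Arg1 (chr10:24915221-24927484, minus strand) and Nos2 (chr11:78920787-78960254, plus strand) share none.

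In TECs, none of the 9 genes tested passed in the comparison of IRI with sham surgery, against 1.4% of the 25917 genes tested. In this edgeR comparison 2 of the 9 and 15% of all genes were under an unadjusted p of 0.05. Smox came closest. It was measured at 0, 5.81 and 5.75 CPM in sham control, 0, 0.834 and 0.133 CPM in sham RIPC, 27.9 and 48 CPM in IRI control and 32, 16 and 67 CPM in IRI RIPC libraries of TECs. Every IRI library was above every sham library, which was the case for 1 of the 9 genes and for 1.59% of all genes tested. The log2 fold change was 5.04 ± 1.30 (SE) with an edgeR adjusted p of 0.0801. Smox passed in 7 of the 21 alternatives: without either of the IRI control libraries (adjusted p = 0.0148 without replicate 1 and 0.0413 without replicate 2), with no filter on low counts (0.000146), in DESeq2's Wald test (0.00043), with replicate numbers as a block (0.0333), from the first file alone (0.0482) and in the fit of all 8 groups (0.0447). In the rest, the second file alone among them, it did not pass (edgeR adjusted p of up to 0.574). DESeq2's Wald test called 2234 of all genes, against 363 in the main test, and the fit without a filter also called more. Summed neutrophil markers in TECs were 1.72 to 32.4 CPM after sham surgery and 34.6 to 109 CPM after IRI and did not overlap either. Their part in the Smox level was not tested.

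Acod1 was not tested in TECs because nearly all libraries were at 0. It was at 0 in all 6 sham libraries, at 0 and 0.0915 CPM in the IRI control libraries and at 3, 0.0846 and 0 CPM in the IRI RIPC libraries. Only IRI RIPC replicate 1 was above the floor of 3 reads per file.

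The other genes of TECs had overlapping sham and IRI libraries. Odc1, which TECs held at 117 to 223 CPM after sham surgery and 66.4 to 146 CPM after IRI, had a log2 fold change of -0.70 ± 0.35 (SE, edgeR adjusted p = 0.372). Oaz1 was at 464 to 806 CPM and 313 to 673 CPM (log2 fold change -0.50 ± 0.28, SE, adjusted p = 0.434). Both values were below 0, and neither gene passed. Arg2 differed between libraries of the same group, with 65.8, 0 and 5.15 CPM in sham control, 0.038, 0.0758 and 0.0442 CPM in sham RIPC, 27.2 and 8.24 CPM in IRI control and 19, 94 and 0.0462 CPM in IRI RIPC libraries. Its log2 fold change of 4.47 ± 1.59 (SE, edgeR adjusted p = 0.219) turned to -0.45 with the control groups alone and passed with no filter on low counts and in DESeq2's Wald test (adjusted p = 0.000619 and 0.0202). Both of these fits called more of all genes than the main test. Srm (log2 fold change 0.55 ± 0.63), Amd1 (-0.49 ± 1.38) and Azin1 (-0.061 ± 0.48) did not pass (SE, edgeR adjusted p of 0.761, 0.963 and 1). Arg1 reached at most 10.0 CPM and Nos2 at most 2.17 CPM in any TEC library, with log2 fold changes of -1.17 ± 2.11 and -1.82 ± 2.14 (SE, edgeR adjusted p of 0.887 and 0.768). The median over the 9 genes was -0.49, beside 0.15 over all genes tested.

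**Figure D3:**
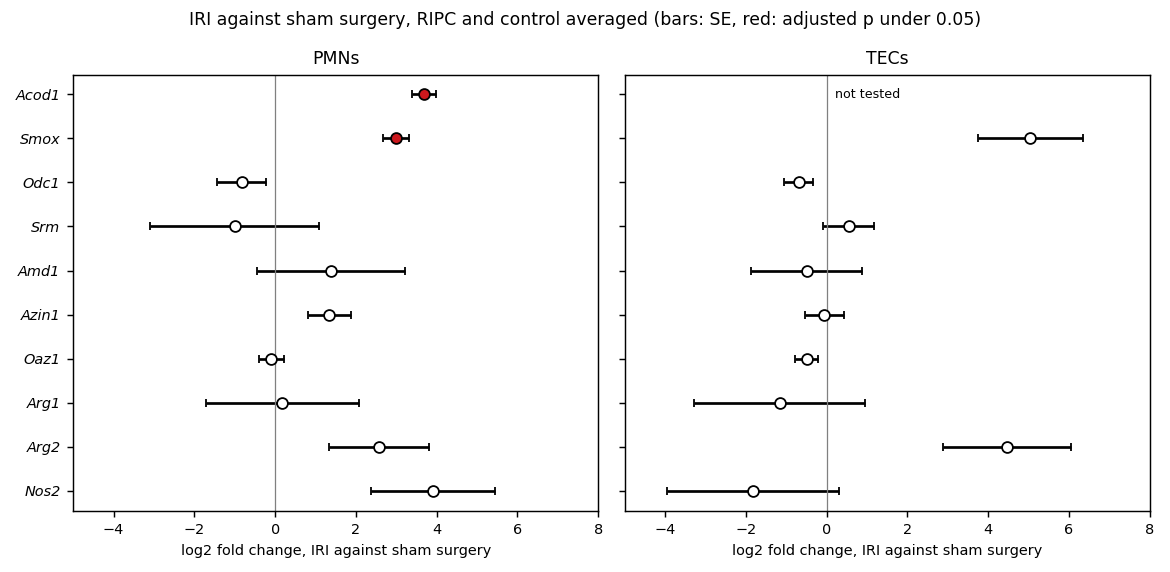
Log2 fold change of IRI against sham surgery for the 10 genes in PMNs and the 9 tested in TECs, with SE bars. Red points passed the edgeR test at an adjusted p under 0.05; these are Acod1 at 3.68 and Smox at 2.99 in PMNs, and Smox in TECs lies at 5.04 without passing.

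Whether the response to IRI differed between the cell types was tested as the difference of the log2 fold changes, PMNs minus TECs, in a fit of all 8 groups. None of the 10 genes passed, and none of the 31769 genes tested did (0%). At an unadjusted edgeR p under 0.05 there were 3102 genes (9.76%), 1 of them among the 10, and DESeq2's Wald test called 2395 genes. The 1 gene was Nos2, with a difference of 5.72 ± 2.29 (SE, unadjusted p = 0.0215, edgeR adjusted p = 0.389), and it passed with no filter on low counts (adjusted p = 0.0399). Many other genes of the whole table passed in that fit too. For Smox the difference was -2.08 ± 1.27 (SE, edgeR adjusted p = 0.694). For Acod1, which was at 0 in the sham libraries of TECs so that its fitted value there depends on how 0 is handled, it was -1.76 ± 1.05 (adjusted p = 0.68) and its sign changed without TEC IRI RIPC replicate 1 (0.46), the TEC library with the most Acod1 at 3 CPM, and with the second file of each library alone (0.32).

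Between the cell types themselves, Acod1, Smox and, after IRI, Nos2 were higher in PMNs than in TECs. After sham surgery 2 of the 10 genes passed, against 2.62% of the 31769 genes tested, or 1.49% counting only genes higher in PMNs. Acod1 had a mean of 146 ± 96.2 CPM (SD, n = 5) in PMNs and was at 0 in all 6 TEC libraries, which makes it at least 552-fold higher when the highest floor of these TEC libraries, 0.265 CPM, stands in for 0 (edgeR adjusted p = 1.97e-05). Smox had a log2 fold change of 6.06 ± 1.04 (SE, PMNs against TECs, edgeR adjusted p = 0.00177), and this call was lost with the control groups alone (adjusted p = 0.23). In both genes every PMN library lay above every TEC library, which held for 3.76% of all genes tested.

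After sham surgery the other genes did not pass between the cell types. Arg1 (6.87 ± 2.09, edgeR adjusted p = 0.091), Arg2 (5.35 ± 1.59, 0.0807) and Nos2 (3.65 ± 1.51, 0.227) had log2 fold changes above 0, each with its SE. The Arg1 value turned to -1.20 without sham control replicate 1 of PMNs, at 674 CPM. That fit leaves the sham control group of PMNs with replicate 2 alone, which was at 0 CPM. The sham RIPC libraries of PMNs held 239, 54.7 and 55.2 CPM of Arg1, against at most 4.32 CPM in TECs after sham surgery. Arg1 passed without sham control replicate 2, and Arg2 passed without that library or without sham RIPC replicate 1 (adjusted p = 0.00717 for Arg1, and 0.0285 and 0.0321 for Arg2). Both also passed with no filter on low counts and in DESeq2's Wald test, and Nos2 with no filter. The Wald test called 4753 of all genes here, against 832 in the main test, and the fit without a filter also called more. Odc1 (-1.10 ± 0.53), Srm (-1.02 ± 1.40), Amd1 (-2.19 ± 1.73), Azin1 (-0.34 ± 0.56) and Oaz1 (-0.55 ± 0.34) had log2 fold changes below 0 (SE), with edgeR adjusted p of 0.289, 0.835, 0.556, 0.906 and 0.409.

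After IRI 3 of the 10 genes passed, all higher in PMNs, against 2.67% of all genes tested and 1.49% as higher. Acod1 had a log2 fold change of 13.03 ± 1.52 (SE, edgeR adjusted p = 0.000169), Smox of 3.98 ± 1.06 (adjusted p = 0.0469) and Nos2 of 9.37 ± 2.28 (adjusted p = 0.0278). In TECs after IRI Acod1 ranged from 0 to 3 CPM and Nos2 from 0 to 1.37 CPM. The sizes of the Acod1 and Nos2 changes therefore depend on how values at or near 0 are handled. The Acod1 call held in every left-out library, whereas the Smox call was lost without any of the 3 IRI RIPC libraries of PMNs, either IRI control library of TECs or IRI RIPC replicates 1 and 2 of TECs (adjusted p = 0.0607 to 0.16), and the Nos2 call without either IRI control library of TECs (0.11 and 0.0794). With the control groups alone Smox (0.656) and Nos2 (0.656) did not pass, and Smox did not with an offset for effective length (0.0686). All PMN libraries lay above all TEC libraries in Acod1, Smox, Nos2 and Arg2, 4 of the 10 genes against 3.94% of all genes, and all lay below in Odc1, 1 of the 10 genes against 2.94%. Arg2 (3.48 ± 1.59, edgeR adjusted p = 0.329), Arg1 (8.19 ± 2.60, 0.117) and Odc1 (-1.26 ± 0.55, 0.311) did not pass (log2 fold change, SE), although Arg1 did without IRI control replicate 1 of PMNs (adjusted p = 0.0452) and in DESeq2's Wald test, and both arginases did with no filter on low counts. Neither did Srm (-2.57 ± 1.54, 0.472), Amd1 (-0.32 ± 1.70, 1), Azin1 (1.04 ± 0.59, 0.436) and Oaz1 (-0.17 ± 0.36, 1). In this comparison DESeq2's Wald test called 3725 of all genes, against 847 in the main test, and the fit without a filter also called more.

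To compare the genes with each other, levels per transcript length were taken as TPM, Salmon's values scaled by transcript length and library. In TECs Oaz1 had the highest mean of the 10 genes in all 4 groups, between 273 and 479 TPM. In PMNs after sham surgery Oaz1 was also highest, at 396 ± 101 TPM (SD, n = 2) in control and 368 ± 153 TPM (SD, n = 3) in RIPC libraries. After IRI with control procedure Oaz1 (291 ± 46.8 TPM, SD, n = 2) and Acod1 (288 ± 54.3 TPM, SD, n = 2) were close and not separated by their spread. After IRI with RIPC Acod1 had the highest mean of the 10, 497 ± 18.5 TPM (SD, n = 3), against 373 ± 49.7 TPM (SD, n = 3) for Oaz1 and 334 ± 84.7 TPM (SD, n = 3) for Smox. Oaz1 shares sequence with its pseudogene Oaz1-ps, which held 159.8, 117 and 155 TPM in the IRI RIPC libraries of PMNs. The order of Acod1 and Oaz1 may therefore depend on how shared reads were assigned in these libraries. Among all genes of a library Acod1 ranked between 161 and 165 by TPM in these libraries and between 232 and 289 with control procedure. After sham surgery it ranked between 1417 and 2274 with control procedure and between 2926 and 3706 with RIPC.

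The study was set up to compare RIPC with the control procedure, and none of the 10 genes passed the edgeR test in any of these 4 comparisons. After sham surgery the RIPC libraries of PMNs were below the control libraries in Acod1. The values were 84.5, 101 and 99.3 CPM against 132 and 316 CPM, with group means of 95 ± 9.15 CPM (SD, n = 3) and 224 ± 130.1 CPM (SD, n = 2). The log2 fold change of RIPC against control was -1.27 ± 0.35 (SE), with an unadjusted p of 0.00579 and an edgeR adjusted p of 0.705. DESeq2 with apeglm shrinkage, the test of the study's methods, gave -1.07 and called it at an s value of 0.00875, among many other genes. The size rested on sham control replicate 2, and without it the log2 fold change was -0.47 in edgeR. Amd1 (log2 fold change -3.23 ± 2.61, SE) and Azin1 (-1.80 ± 0.74, SE) also had all RIPC libraries below all control libraries, at 3.02, 0 and 0.104 CPM against 8.61 and 10.6 CPM for Amd1 and at 62.5, 26.7 and 9.45 CPM against 133 and 92.5 CPM for Azin1. These were 3 of the 10 genes, against 8.01% of all genes tested. Their edgeR adjusted p were 0.789 for Amd1 and 0.705 for Azin1. Amd2, with which Amd1 shares most of its sequence, was at 0, 21.5 and 4.83 CPM in these RIPC libraries. In these control libraries Amd2 was at 22.7 and 1.87 CPM, so its groups overlapped. The order of the Amd1 libraries may therefore depend on how shared reads were assigned. Of all genes tested, 1 passed (0.004% of 25002), while 4.6% of genes were under an unadjusted p of 0.05, as were 2 of the 10. The fitted change was below 0 in all 10 genes, with a median of -1.39 beside 0.00 over all genes. The control libraries of this comparison had summed neutrophil markers of 9352 to 28020.3 CPM and the RIPC libraries of 6078 to 10938 CPM, and the part of this difference in the result was not tested.

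After IRI the order of the groups in PMNs was the other way round. The RIPC libraries held 2552, 2783 and 2324 CPM of Acod1 against 1186 and 1617 CPM in the control libraries, with means of 2553 ± 229.7 CPM (SD, n = 3) and 1401 ± 305 CPM (SD, n = 2). The log2 fold change was 0.82 ± 0.37 (SE, unadjusted p = 0.0512, edgeR adjusted p = 0.92). Smox was at 687, 790.0 and 855 CPM against 479.6 and 456 CPM, with a log2 fold change of 0.69 ± 0.41 (SE, edgeR adjusted p = 0.92), and Oaz1 at 485, 429 and 493 CPM against 324 and 419 CPM, with 0.30 ± 0.44 (SE, adjusted p = 1). In these 3 of the 10 genes all RIPC libraries were above all control libraries, against 6.87% of all genes tested. No gene of the table passed (0%) in edgeR, with 680 genes (2.72%) and none of the 10 under an unadjusted p of 0.05. DESeq2's Wald test called 429 genes and apeglm 40, none of them among the 10.

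The difference of the RIPC effect between IRI and sham surgery in PMNs was tested after the data had been seen. For Acod1 the 2 log2 fold changes differed by 2.09 ± 0.51 (SE, unadjusted p = 0.00271, edgeR adjusted p = 0.719), and for Smox by 1.17 ± 0.58 (SE, adjusted p = 0.719). No gene passed (0%), 1434 genes (5.74%) and 1 of the 10 were under an unadjusted p of 0.05, and DESeq2's Wald test called 669 genes.

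**Figure D4:**
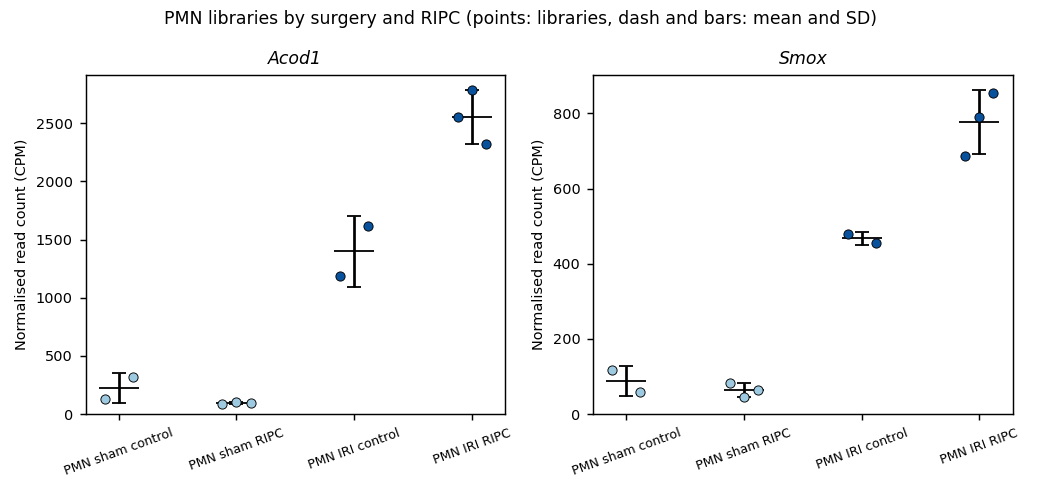
Normalised read counts (CPM, linear axis from 0) of Acod1 and Smox in the PMN libraries by surgery and RIPC; points are libraries, dashes and bars are means and SDs. For Acod1 the RIPC libraries lie below the control libraries after sham surgery and above them after IRI, with adjusted p of 0.705 and 0.92.

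In TECs RIPC likewise gave no call among the 9 genes tested. After sham surgery no gene of the table passed in edgeR (0%), 1175 genes (4.53%) and 1 of the 9 were under an unadjusted p of 0.05, and DESeq2's Wald test called 425 genes. None of the 9 had groups apart from each other, against 7.83% of all genes. The 1 gene was Arg2 with a log2 fold change of -8.68 ± 2.66 (SE, edgeR adjusted p = 0.708). It was measured at 65.8, 0 and 5.15 CPM in the control libraries and 0.038, 0.0758 and 0.0442 CPM in the RIPC libraries, so that control replicate 1 carried the difference and the RIPC libraries were under the floor. It passed with no filter on low counts and in DESeq2's Wald test. Without that library the log2 fold change was -5.46. After IRI 1 gene of the table passed (0.00386%), none of the 9, and 4.35% of genes were under an unadjusted p of 0.05. All RIPC libraries of TECs lay below the control libraries after IRI in Odc1 (119.7, 66.4 and 94.8 CPM against 145 and 146 CPM, log2 fold change -0.63 ± 0.51, SE), Oaz1 (416, 313 and 412 CPM against 673 and 487 CPM, -0.60 ± 0.41) and Nos2, whose libraries were all at most 1.37 CPM. These were 3 of the 9 genes, against 8.97% of all genes tested, with edgeR adjusted p of 0.842 for Odc1, 0.78 for Oaz1 and 0.778 for Nos2.

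The wider pathways were followed in 3 lists, which include the genes above and leave out the X-linked Sat1 and Sms. In PMNs after IRI the list of itaconate and the citric acid cycle had 1 of 19 genes tested called, Acod1 itself, the list of polyamine metabolism 1 of 26, Smox itself, and the list of arginine and nitric oxide 0 of 23, against 0.416% of all genes tested. In the last, 4 genes were under an unadjusted edgeR p of 0.05, as were 11.8% of all genes. The ones with the smallest p were Slc3a2, the heavy chain of amino acid transporters (log2 fold change 1.27 ± 0.26, SE, adjusted p = 0.115), and Gatm, which uses arginine for creatine synthesis (-2.08 ± 0.55, SE, adjusted p = 0.212). The medians were -0.63 for the citric acid cycle, 0.21 for polyamines and 0.18 for arginine.

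In TECs after IRI, some enzymes of the citric acid cycle and of arginine metabolism were called as lower, while most genes of both lists did not pass. In the citric acid cycle list 4 of 18 genes tested passed as lower and none as higher, against 1.15% of all genes as lower. They were Suclg1, a subunit of succinyl-CoA ligase, at 507 to 960.3 CPM after sham surgery and 127 to 269 CPM after IRI (log2 fold change -2.07 ± 0.34, edgeR adjusted p = 0.0109); the mitochondrial isocitrate dehydrogenase Idh2 at 501 to 895 CPM and 103 to 286 CPM (-2.03 ± 0.35, 0.0131); Ogdh, of the oxoglutarate dehydrogenase complex (-2.24 ± 0.48, 0.035); and Idh3b, a subunit of the NAD-linked isocitrate dehydrogenase (-1.52 ± 0.35, 0.0458). The fitted change was below 0 in 17 of the 18 genes, with a median of -1.40 beside 0.15 over all genes. In the arginine list 4 of 25 passed as lower and none as higher. Argininosuccinate synthase (Ass1), the first enzyme that renal cells use to make arginine from citrulline, was at 1840.0 to 5907 CPM after sham surgery and 292 to 1942 CPM after IRI (-2.35 ± 0.48, 0.0274). Argininosuccinate lyase (Asl), the next enzyme, was at 427 to 669.5 CPM and 26.6 to 342 CPM (-2.56 ± 0.54, 0.0343). Ornithine aminotransferase (Oat, -1.65 ± 0.35, 0.0323) and proline dehydrogenase (Prodh, -2.89 ± 0.63, 0.0391) were the others. The median of the arginine list was -1.53. In the polyamine list none of 26 passed and 2 were under an unadjusted p of 0.05, a smaller share than the 15% of all genes, and beside Smox the smallest p was that of Adi1, of the methionine salvage pathway (-1.09 ± 0.51, adjusted p = 0.332).

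Suclg1 and Idh2 passed with any single TEC library left out, while Idh3b lost the call without 10 of the 11 libraries, Oat without 8, Prodh without 7, Ogdh and Asl without 6 and Ass1 without 4, with edgeR adjusted p of up to 0.163 for Idh3b without IRI control replicate 2, 0.158 for Oat without IRI control replicate 1, and 0.105 for Ogdh, 0.114 for Ass1, 0.117 for Asl and 0.134 for Prodh without sham control replicate 2. None of the 8 passed with the control groups alone or in the fit of all 8 groups. The summed proximal tubule markers were also lower in every IRI library of TECs than in any sham library, as given above, although single markers such as Kap and Prom1 overlapped. The part of proximal tubule content in the lower values of these genes was not tested.

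**Figure D5:**
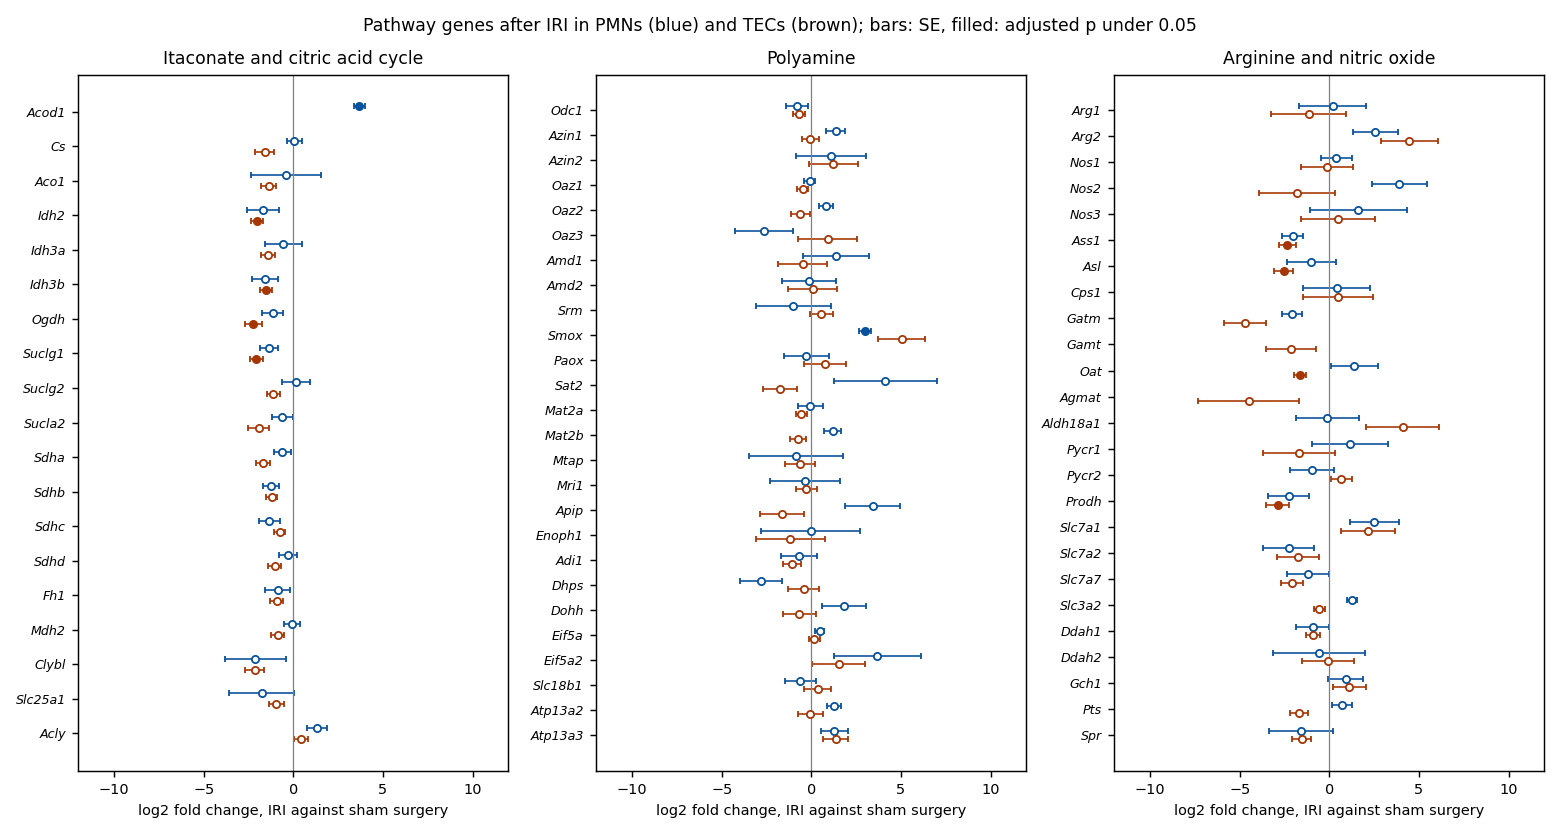
Log2 fold change of IRI against sham surgery for the genes of the 3 pathway lists in PMNs (blue) and TECs (brown), with SE bars; filled points passed the edgeR test at an adjusted p under 0.05. In TECs 4 genes of the citric acid cycle list and 4 of the arginine list are filled and below 0; in PMNs Acod1 and Smox are filled and above 0.

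Between the cell types most calls in the lists were lower in PMNs. After sham surgery 5 of the 19 citric acid cycle genes were lower in PMNs than in TECs, against 1.13% of all genes tested. They were the succinyl-CoA ligase subunits Suclg2 (log2 fold change -4.01 ± 0.68, edgeR adjusted p = 0.00155) and Suclg1 (-1.93 ± 0.47, 0.0282), fumarase Fh1 (-2.49 ± 0.59, 0.0228), the mitochondrial malate dehydrogenase Mdh2 (-1.83 ± 0.46, 0.0356) and the succinate dehydrogenase subunit Sdhd (-1.96 ± 0.48, 0.0298). Beside Smox, Mat2a, which makes S-adenosylmethionine, passed in the polyamine list, as lower in PMNs (-2.80 ± 0.59, 0.00992). In the arginine list Ass1 (-3.18 ± 0.58, 0.00332), the dimethylarginine hydrolase Ddah1 (-3.30 ± 0.74, 0.0165) and Prodh (-3.95 ± 0.95, 0.0269) were lower in PMNs. Without sham control replicate 1 of PMNs the calls of Fh1, Suclg1, Sdhd, Mdh2, Ddah1 and Prodh were lost (adjusted p = 0.074 to 0.167), and that of Mat2a without sham control replicate 2 of PMNs (0.0647). Over the 11 libraries of this comparison, Sdhd and Mdh2 each lost their call without 5, Suclg1 without 4 and Prodh without 2.

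After IRI 1.17% of all genes were called as lower in PMNs and 1.49% as higher. In the citric acid cycle list 3 of 19 were lower, in the polyamine list 1 of 26 and in the arginine list 2 of 25. Suclg2 (-2.79 ± 0.65, edgeR adjusted p = 0.0197), Fh1 (-2.45 ± 0.60, 0.0287) and the succinate dehydrogenase subunit Sdhc (-1.99 ± 0.51, 0.0373) were lower in PMNs. The polyamine exporter of lysosomes Atp13a2 (2.55 ± 0.60, 0.0224) was higher, and Mat2a (-2.33 ± 0.59, 0.0348) lower. Ass1 (-2.91 ± 0.59, 0.0073) and Ddah1 (-3.34 ± 0.76, 0.0178) were lower too (log2 fold change of PMNs against TECs, SE). The calls of Suclg2, Fh1, Sdhc, Atp13a2 and Mat2a were lost without IRI control replicate 1 of PMNs (adjusted p = 0.108, 0.247, 0.335, 0.128 and 0.22) or replicate 2, and that of Ddah1 without replicate 2 (0.0836). Over all 10 libraries of this comparison, Fh1, Sdhc and Mat2a each lost their call without 7, Atp13a2 without 5 and Suclg2 without 3.

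No gene of the 3 lists passed in a comparison of RIPC with control or in the difference of the IRI effect between the cell types. In the latter the smallest p of each list were those of the citrate synthase gene Cs (adjusted p = 0.533) and Acod1 (0.68), of Mat2b (0.38) and Apip (0.413), and of Slc3a2 (0.246) and Pts (0.327), by edgeR. In PMNs after sham surgery the genes with the smallest p beside Acod1 were Suclg2 (log2 fold change of RIPC against control -2.54 ± 1.12), Apip, Dohh (-5.39 ± 1.88), Slc7a1 (6.70 ± 2.50) and Slc7a7 (3.51 ± 1.88), all with an edgeR adjusted p of 0.705. Apip, of methionine salvage, was at 0, 0 and 0 CPM in the RIPC libraries and at 0.447 and 32.8 CPM in the control libraries. In PMNs after IRI they were Idh3a (-2.16 ± 1.44), Dhps (-2.59 ± 1.54), Smox, Slc7a1 (-3.72 ± 1.88) and Gch1 (2.56 ± 1.54), with an adjusted p of 0.92. In TECs after sham surgery they were Acly (-2.26 ± 0.57), Sdhc (-0.31 ± 0.40), Smox (-3.59 ± 1.70), Mat2a (-0.72 ± 0.43), Arg2 and Aldh18a1 (-7.57 ± 3.32), with adjusted p of 0.708 or more. In TECs after IRI they were Ogdh (1.27 ± 0.69), Sucla2 (1.58 ± 0.86), Paox (-3.78 ± 1.82), Mri1 (-1.48 ± 0.86), Gch1 (-3.74 ± 1.43) and Slc7a2 (4.47 ± 2.05), with an adjusted p of 0.778.

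Across the 10 PMN libraries the genes whose log2(CPM + 1) followed Acod1 most closely, with Pearson's r, were Nfkbid (0.989), Sp140 (0.985), Gm12505 (0.983), Eepd1 (0.979) and Pim1 (0.976). Those of Smox were Gm48942 (0.985), Hdc (0.983), Raver1 (0.983), Plaur (0.979) and Ccrl2 (0.978). Nfkbid, which encodes a nuclear inhibitor of NF-kB signalling, was at 31.3 to 77.9 CPM after sham surgery and 225 to 661 CPM after IRI. Hdc, which makes histamine from histidine, was at 159 to 603 CPM after sham surgery and 2864 to 4182 CPM after IRI, and the urokinase receptor gene Plaur at 114 to 406 CPM after sham surgery and 802 to 1459 CPM after IRI. Acod1 and Smox correlated with each other with r = 0.945. The points share their libraries and fall into a sham and an IRI group in all these genes, so these values describe the separation of the surgeries in the same 10 libraries.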

How the data were processed

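RNA-Seq libraries of PMNs and TECs were made, per the labels, by poly(A)-primed reverse transcription with a template switch, PCR of full-length cDNA and single-end sequencing of 50-base reads. The submitters' processing notes name Trim Galore 0.6.4, Salmon 1.0.0 and mm10, and the paper's methods a Gencode transcriptome. The authors deposited Salmon's estimated counts and TPM per transcript, 2 files a library, not normalised between libraries. The labels name no molecular identifiers.

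Estimated counts were added over the transcripts of each gene (140748 transcripts, of which 884, with 0.139% to 0.255% of reads, matched no gene name in Gencode M21) and over both files, and rounded. Because the files seem to hold largely the same reads, the sums probably overstate depth, and each file was also fitted alone as an alternative added after seeing the data. The deposited TPM of a gene's transcripts were added and averaged over the 2 files for comparisons between genes. Groups were taken from the sample labels.

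Counts were fitted in R 4.3.3 with edgeR 4.0.16 (TMM, filterByExpr by group, quasi-likelihood F test, Benjamini-Hochberg over all genes tested), with 1 mean per group. IRI and RIPC comparisons used the 4 groups of a cell type and comparisons of cell types all 8. The SE given with a log2 fold change was derived from the test, as its absolute value over the square root of the F statistic. Genes of the sex chromosomes and mitochondria were left out of the tests. DESeq2 1.42.0 (Wald test; apeglm 1.24.0 with an s value under 0.01 for RIPC), other scalings and filters, an offset for effective length, control groups alone, and each library left out were alternatives. The fits were also run on simulated data. The simulated spread between libraries was smaller than that of these data, so those runs do not show how the fits behave here. Named were the 10 genes, and in each pathway list at most the 6 called genes with the smallest p, otherwise the 2 with the smallest p. The genes and lists were chosen with earlier results of these data known, and 1 gene of the citric acid cycle list is not reported here. Replicate numbers are shared between groups, but deviations of same-numbered libraries correlated between -0.0209 and 0.0239 in PMNs and between -0.0895 and 0.11 in TECs, so the numbers were not taken as pairs. Whether PMN and TEC libraries of the same group and number came from the same animal was not examined. The comparisons of cell types treated them as independent.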

Additional observations from a re-analysis of the deposited data

Results flagged for a closer look

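The effect of RIPC on Acod1 in PMNs had opposite signs after the 2 kinds of surgery. The log2 fold change of RIPC against control was -1.27 ± 0.35 (SE) after sham surgery, with each of the 3 RIPC libraries below both control libraries, and 0.82 ± 0.37 (SE) after IRI, with each of the 3 RIPC libraries above both. The difference of 2.09 had an unadjusted p of 0.00271 and an edgeR adjusted p of 0.719, and ranged from 1.32 to 2.64 with single libraries left out (adjusted p = 0.0976 to 1).

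Sat1, the spermidine and spermine acetyltransferase of polyamine breakdown, is on the X chromosome and was outside the tests. In PMNs it ranged from 557 to 1026 CPM (median 909, n = 5) after sham surgery and from 1262 to 1649.5 CPM (median 1351, n = 5) after IRI, with every IRI library above every sham library. In a fit that included the sex chromosomes its log2 fold change was 0.75 ± 0.22 (SE, edgeR adjusted p = 0.261).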

How the results depend on the processing

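Over the named genes, 78 results were recomputed under the alternatives, which gave 1587 values; 1359 kept direction and side of the threshold, 165 kept direction and lost the call, 28 gained it and 35 changed sign. The numbers of genes called are given in the order IRI in PMNs, IRI in TECs, PMNs against TECs after sham surgery, the same after IRI, the difference of the IRI effect, RIPC in PMNs after sham surgery, in PMNs after IRI, in TECs after sham surgery, in TECs after IRI, and the difference of the RIPC effect in PMNs. They were 104, 363, 832, 847, 0, 1, 0, 0, 1 and 0 as reported, 971, 1289, 2222, 1763, 722, 139, 18, 54, 71 and 101 with no filter on low counts and 1955, 2234, 4753, 3725, 2395, 813, 429, 425, 699 and 669 in DESeq2's Wald test. With at least 10 counts in every library there were 444 and 683 for IRI in PMNs and TECs, 123 for the difference, and 0 and 0 for RIPC in PMNs after sham surgery and in TECs after IRI. The control groups alone gave 0, 1, 180 and 71 for the first 4, in a contrast of fewer libraries, and the fit of all 8 groups gave 37 for IRI in TECs. The first file alone gave 1 for the difference of the IRI effect and 2 for RIPC in TECs after IRI, and the second file 1 and, for RIPC in PMNs after sham surgery, 0. DESeq2 with apeglm called 528, 40, 62 and 246 genes for RIPC. With single libraries left out the counts ranged 13 to 393 (lowest without IRI RIPC replicate 2, highest without sham control replicate 1), 92 to 714 (lowest without sham control replicate 2, highest without IRI RIPC replicate 3), 549 to 1037, 560 to 815 and 0 to 124 for the first 5, 0 to 11 for RIPC in PMNs after sham surgery and 1 to 22 in TECs after IRI. The causes of these differences were not tested.

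With the replicate block the counts were 23 for IRI in PMNs, 502 for PMNs against TECs after sham surgery, 15 for the difference of the IRI effect, and 0 and 3 for RIPC in PMNs after sham surgery and in TECs after IRI. The block turned the sign of Srm 2.17, Arg1 -0.35 (IRI in PMNs), Nos2 0.90 (IRI in TECs) and Amd1 1.08 (PMNs against TECs after IRI).

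Log2 fold changes that changed sign elsewhere were Amd1 -0.95, Arg1 -0.36 (IRI in PMNs), Amd1 0.70, Arg2 -0.45, Nos2 1.69 (IRI in TECs) and Amd1 0.15, Azin1 0.44 (PMNs against TECs after sham surgery) with the control groups alone, Amd1 0.20, Azin1 0.70 (IRI in TECs) with an offset for effective length, and Azin1 in TECs after IRI with DESeq2 size factors (0.041), in DESeq2's Wald test (0.041) and with at least 10 counts (0.093). The second file alone gave Acod1 0.32 (the difference of the IRI effect). With single libraries left out the ranges that crossed 0 were Odc1 -1.18 to 0.0047, Srm -5.78 to 4.97, Amd1 -3.49 to 3.50, Oaz1 -0.25 to 0.18 and Arg1 -0.46 to 8.16 for IRI in PMNs, Srm -0.15 to 0.89, Azin1 -0.58 to 0.14 and Nos2 -2.81 to 1.10 for IRI in TECs, Arg1 -1.20 to 7.88 and Amd1 -5.29 to 0.50 for PMNs against TECs after sham surgery and IRI, and Acod1 -2.22 to 0.46 for the difference. DESeq2 size factors moved the median log2 fold change of all genes after IRI in TECs from 0.15 to 0.28.

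Levels under 3 reads per file were not distinguishable from 0 at this depth. With 2 or 3 libraries a group, genes that scattered between libraries of a group, such as Arg1 in PMNs, had wide errors. The blood label of PMNs stands beside tubular and macrophage transcripts in them, whose part in the results was not tested.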

Other observations

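In TECs Sat1 ranged from 439 to 1810.5 CPM (median 648, n = 6) after sham surgery and from 1496 to 2764 CPM (median 2366, n = 5) after IRI. Sham control replicate 1 was the sham library that reached into the range of the IRI libraries. In the fit that included the sex chromosomes its log2 fold change was 1.57 ± 0.33 (SE, edgeR adjusted p = 0.035), so that Sat1, which starts the breakdown of polyamines, was called as higher after IRI there. Between the cell types the difference of its IRI effect, PMNs minus TECs, was -0.71 ± 0.49 (SE, adjusted p = 0.796). Spermine synthase (Sms), also on the X chromosome, did not pass in PMNs after IRI (-2.33 ± 1.46, SE, adjusted p = 0.526).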
